A study of Arabidopsis thaliana with 9 samples.

Results

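The libraries described here are those made from Arabidopsis leaves 6 and 9 h after a shift to 21 °C, set against those made at 0 h from plants still at 28 °C. The members were chosen by time point, with earlier results of these data known. They are 4 libraries at 6 and 9 h and 2 libraries at 0 h, 6 of the 8 labelled libraries of this time course. The plants were 4 weeks old and came from the wild-type ecotype Nossen (No-0) and from the mutant slh1, in a day of 10 h light and 14 h dark. The shifted groups were No-0 at 6 h, No-0 at 9 h, slh1 at 6 h and slh1 at 9 h at 21 °C, and the groups before the shift were No-0 at 0 h and slh1 at 0 h at 28 °C. All plants had germinated on plates and grown at 28 °C, and slh1 carries a mutant allele of the immune receptor gene RRS1. Each genotype and time point had 1 library, so that no group had a replicate. In the test of the shift, the spread holds the difference between 6 and 9 h and any difference between the genotypes in their change. A constant difference in level between the genotypes is taken out by the genotype term. In the test of the genotypes' change, the spread holds the difference between 6 and 9 h. The p-values thus measure the spread between these libraries only.

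EXPRSS Tag-seq counts a polyadenylated transcript by a tag near its 3′ end. Levels are given as sense tags scaled to a library total of 1000000 (TPM). By the study's account a transcript gives a single tag, and no correction for length was made in these levels. The change still moved with transcript length, as given further on. The 6 libraries held between 200614 and 401734 sense tags, and 1 tag was worth between 2.49 and 4.98 TPM. Chloroplast loci took between 14.9% and 22.6% of the sense tags at 6 and 9 h, and 22.6% and 20.6% in No-0 and slh1 at 0 h. Of 20056 sense loci seen, the 2095 with a mean of 20 or more tags over the 6 libraries were tested. The 13 genes just inside that limit had a mean of 20 tags, and the nearest gene outside it had 19.9. Since 4 of the 6 libraries were shifted ones, the limit favoured genes that were high after the shift. In all, 479 of the tested genes had a mean below 20 tags at 0 h, against 50 with a mean below 20 tags at 6 and 9 h.

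A leaf reads 2 kinds of signal in such a design. Temperature is sensed by phytochrome B and by the circadian clock, and a move from warm to mild temperature changes growth, membrane and cold-acclimation programmes. The time of day acts through light and the clock, in which LHY and CCA1 peak at dawn and the PRR, GI and evening complex genes follow through the day, and it orders the genes of photosynthesis, starch and flavonoid synthesis. By the protocol, the libraries at 6 and 9 h were taken later in the day than those at 0 h. The hour at which the 0 h leaves were taken was not tested, and clock genes at 0 h are given below. Temperature, time of day and hours of light therefore cannot be told apart in any value below.

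The label leaf was checked against markers. All 6 leaf markers, among them carbonic anhydrase CA1 and the Rubisco small subunit RBCS1A, passed the limit. Their summed level was 27611 to 32194 TPM at 6 and 9 h and 37450 and 37764 TPM at 0 h. Of 11 markers of flower, seed and root hair, 9 were at 0 tags in all 8 libraries, and the list summed to between 0 and 5 tags at 6 and 9 h and to 0 and 2 tags at 0 h. In whole leaves, fewer cells of a type and less RNA per cell cannot be told apart.

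The list of 8 morning clock genes stood lower at 0 h than at 24 h, but was not absent at 0 h. It summed to 147 and 125 TPM in No-0 and slh1 at 0 h, against 779 and 766 TPM at 24 h. At 6 and 9 h the sum was 32.1 to 102 TPM. The protocol puts the transfer at the start of the light period, so that 0 h and 24 h fall at the same time of day. LHY, a transcription factor that peaks around dawn, had 0, 3.18, 1.83 and 308 TPM in No-0 at 0, 6, 9 and 24 h, and 0, 18.0, 0 and 306 TPM in slh1. The 0 tags at 0 h allow a level of up to 8.27 TPM in the No-0 library and 15.0 TPM in that of slh1, far below the levels at 24 h. RVE4, another morning-phased factor of this family, had 22.1, 3.18, 13.7 and 250.3 TPM for No-0 and 19.9, 35.5, 32.4 and 258 TPM in slh1 over the same times. PRR7, a repressor of the day, stood highest at 0 h, with 105, 9.54, 21.997 and 7.95 TPM for No-0 and 94.7, 43.2, 2.49 and 0 TPM in slh1. DIN6 (ASN1), an asparagine synthetase gene known to rise in the dark, had 0 tags in all 6 libraries from 0 to 9 h and 63 and 18 tags in No-0 and slh1 at 24 h. Both genotypes thus differed between 0 h and 24 h in genes that track the time of day, and whether this lay in the sampling time, the temperature or the clock was not tested. None of the 8 morning clock genes passed the limit of 20 tags.

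**Figure D1:**
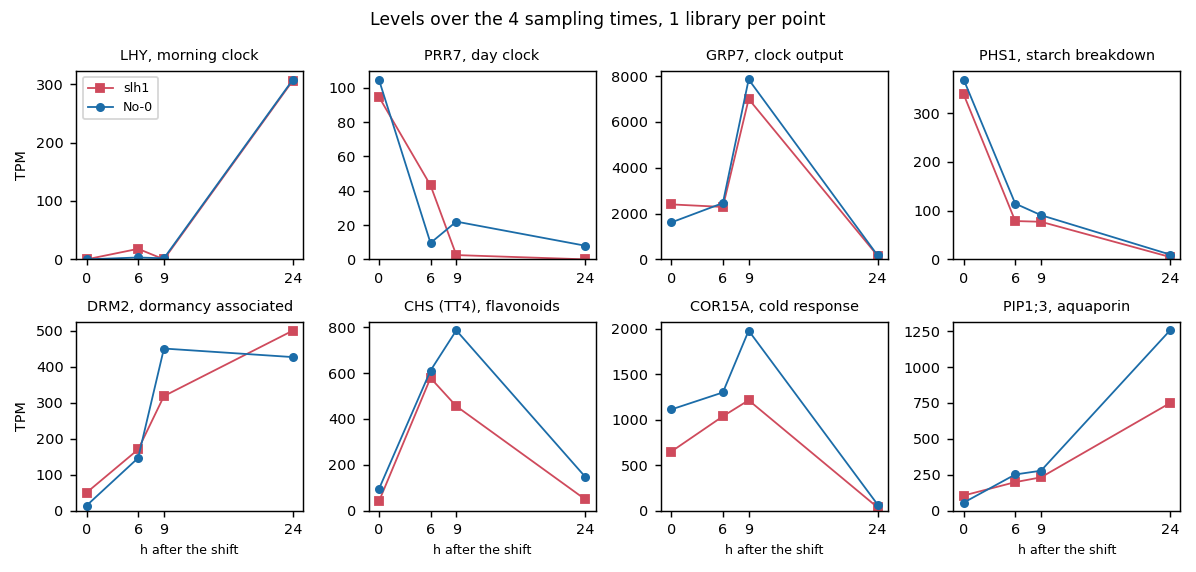
Level in TPM (y axis, from 0) against hours after the shift (x axis, 0 h at 28 °C, then 21 °C) for 8 genes, with 1 library per point, slh1 as squares and No-0 as circles. LHY was at 0 TPM in both genotypes at 0 h and at 306 and 308 TPM at 24 h, PHS1 fell below its 0 h level by 6 h, and CHS (TT4) peaked at 6 h in slh1 and at 9 h in No-0.

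For the 6 and 9 h libraries against the 0 h libraries, with genotype as a block, 323 of 2095 genes changed at an adjusted p below 0.05 (edgeR quasi-likelihood test). Of these, 136 were higher and 187 were lower, 15.4% of all genes tested, with 6.49% higher and 8.93% lower. At an unadjusted p below 0.05 there were 664 genes. The SE given with a fold change below was back-calculated, as the size of the log2 fold change divided by the square root of the F statistic. For genes with few tags at 0 h it can understate the counting error. A change of at least 2-fold was fitted for 285 of the 323, and one of at least 4-fold for 29 higher and 23 lower genes. Together the genes called higher took 6.24% to 8.62% of the sense tags at 6 and 9 h, and 2.62% and 2.53% in No-0 and slh1 at 0 h. The genes called lower took 5.52% to 7.20% at 6 and 9 h, and 13.5% and 13.9% at 0 h. In 311 of the 323 genes the libraries of the 2 stages did not overlap, which held for 41.4% of all genes tested. Taking 6 h alone against 0 h gave 128 higher and 164 lower genes, and 9 h alone gave 261 higher and 275 lower, so that the count at 9 h alone was over 1.5 times the pooled one.

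Without the No-0 library at 0 h no gene was called by edgeR, with 387 at an unadjusted p below 0.05. Without the slh1 library at 0 h 47 genes were called, and without the No-0 library at 9 h 167 were. Scaling by the total of sense tags in place of TMM moved the median change of all tested genes to 0.20 on the log2 scale, against -0.01 with TMM, and gave 247 higher and 129 lower genes, 65.7% higher against 42.1%.

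Of the 323 genes, which were chosen by their change in these same libraries, 322 had 1 sign in all 4 differences of a shifted library from the 0 h library of its own genotype, on the scale log2(TPM + 5). The 4 differences share the 0 h library of each genotype, and 1 sign in all 4 held for 1075 of the 2095 genes tested (51.3%). The exception was AT5G57040, named here after its values were seen, with 190.4 TPM in slh1 at 6 h and 179 TPM in slh1 at 0 h although it was called lower. Over all 2095 genes, 1483 (70.8%) had the same sign of change in both genotypes, and across genes the change in slh1 and the change in No-0 had a Pearson r of 0.60 and a Spearman rho of 0.59. These genes are not independent, and the 2 genotypes share no library. The difference between the genotypes in their change was not past the threshold for any gene in edgeR, with 103 genes at an unadjusted p below 0.05, and DESeq2 and limma-voom called 0 genes with 26 and 66 at an unadjusted p below 0.05. A miss in this test does not show that the genotypes changed alike.

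**Figure D2:**
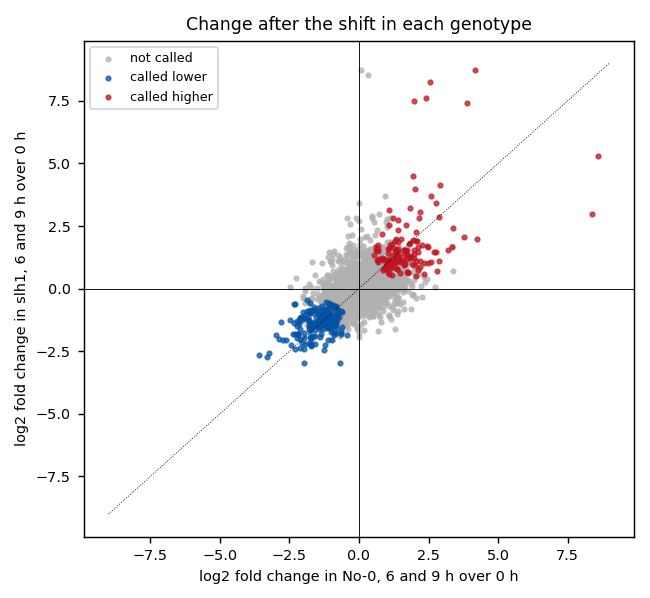
Log2 fold change of 6 and 9 h over 0 h in slh1 (y axis) against that in No-0 (x axis), 1 point per gene for the 2095 genes tested, coloured by call in the joint test, with the dotted line at equal change. Called genes lie in the lower left and upper right, the directions that both genotypes share.

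Of the 28 genes named for the size of their change, 12 had fractional counts in some library, from reads divided among loci. Among the 14 genes that rose most were genes of the cell wall and leaf surface, of flavonoid synthesis and of dormancy. All of the 14 but DOT1 and TT4 had a mean below 20 tags at 0 h and passed the limit only through the shifted libraries. Their direction is thus partly set by the limit. Of the 136 genes called higher, 56 had a mean below 20 tags at 0 h. Of the 187 called lower, 31 had a mean below 20 tags at 6 and 9 h. AGP31, an arabinogalactan protein of the cell wall (chromosome 1, 9889101 to 9891015, minus strand, TAIR10.1), had 134 and 140.2 TPM in leaves of No-0 at 6 and 9 h and 299.5 and 212 TPM in those of slh1, against 0 and 4.98 TPM in No-0 and slh1 at 0 h. The fitted log2 fold change was 6.21 (SE 0.69, adjusted p = 0.000159). At 0 h a single tag lay behind it, and the ratio of the pooled TPM was 113 with an exact 95% interval of 20.2 to 4484 that covers counting error only. LTP6, a lipid transfer protein of the kind that carries cuticle lipids, had 95.4 and 135 TPM in leaves of No-0 and 137 and 207 TPM in those of slh1, against 5.51 and 0 TPM at 0 h, a pooled ratio of 41.3 (11.3 to 343). No library after the shift came near those at 0 h in either gene.

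PDF1, protodermal factor 1, known from the outermost cell layer, had 54.1 and 55.0 TPM in leaves of No-0 at 6 and 9 h and 112 and 134 TPM in those of slh1, against 8.27 and 0 TPM at 0 h, a pooled ratio of 17.2 (5.76 to 84.5). DOT1, annotated as a glycine-rich protein, was the most abundant of the 14 genes with the largest rise. It had 932 and 663 TPM in leaves of No-0 and 597 and 1367 TPM in those of slh1, against 96.5 and 44.9 TPM at 0 h (log2 fold change 3.39, SE 0.44, adjusted p = 0.000441). LTP3 had 164 and 223 TPM in leaves of No-0 and 132 and 62.2 TPM in those of slh1, against 16.5 and 15.0 TPM at 0 h (3.04, SE 0.55, adjusted p = 0.00313). AT1G48750, a lipid transfer family member, changed by 2.87 (SE 0.41, adjusted p = 0.00089). Of these, LTP3 was back at 23.8 and 4.86 TPM in No-0 and slh1 at 24 h, whereas PDF1 stood at 141 and 122 TPM.

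DYL1 (DRM1) and AT2G33830 (DRM2) are dormancy-associated genes, expressed in resting buds and in plants short of sugar. DRM2 had 146 and 451 TPM in leaves of No-0 at 6 and 9 h and 170.1 and 319 TPM in those of slh1, against 13.8 and 49.8 TPM at 0 h (3.04, SE 0.61, adjusted p = 0.0053). DRM1 had 15.9 and 175 TPM in leaves of No-0 and 35.5 and 99.6 TPM in those of slh1, against 6.43 and 0 TPM at 0 h, a pooled ratio of 23.3 (6.32 to 195). In both genotypes the 9 h library was above the 6 h library for both genes. At 24 h DRM1 was at 197 and 185 TPM and DRM2 at 427 and 501 TPM. Of 19 genes in the list of dark and sugar starvation, these 2 passed the limit of 20 tags, both only through the shifted libraries. The direction of the tested members is thus partly set by the limit. DRM1 was not past the threshold from 6 h alone (adjusted p = 0.392), without the No-0 library at 9 h (adjusted p = 0.138) or with limma-voom (adjusted p = 0.0947). DRM2 was not with limma-voom (adjusted p = 0.0958). Leaving out the No-0 or the slh1 library at 0 h moved the log2 fold change of DRM2 to 2.08 or 4.29. That of DRM1 moved to 7.44 or 3.93. How the named genes stood against the threshold in those fits is given further on. The counts of DRM1 are partly fractional, from reads shared with other loci. BXL1, a beta-xylosidase gene of that list, had 1, 7, 3 and 5 tags at 6 and 9 h and 0 and 1 at 0 h, with 286 and 50 tags at 24 h.

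Among the other genes that rose, AT5G03545, annotated as responding to phosphate starvation, had 396 and 439 TPM in leaves of No-0 and 254 and 254 TPM in those of slh1, against 27.6 and 49.8 TPM at 0 h (2.99, SE 0.40, adjusted p = 0.000517). AT2G46192, a noncoding RNA of unknown role, changed by 2.89 (SE 0.54, adjusted p = 0.00396). UBC28, a ubiquitin-conjugating enzyme, changed by 2.61 (SE 0.51, adjusted p = 0.0052). UBC28 was at 584 and 754 TPM at 24 h, above its range of 98.6 to 149.8 TPM at 6 and 9 h.

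**Figure D3:**
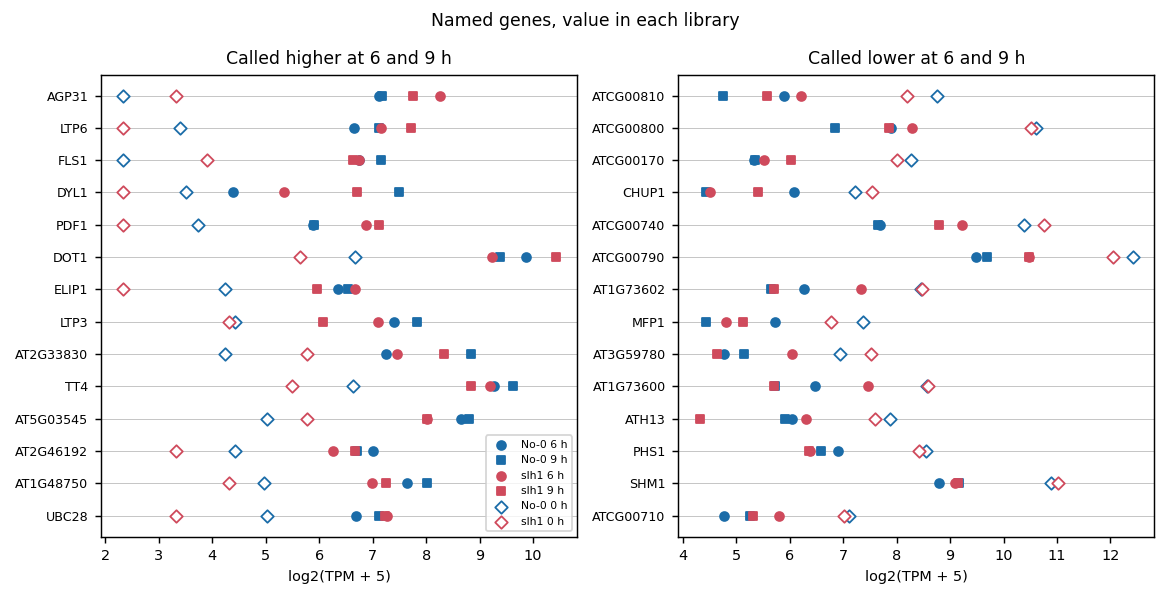
Level as log2(TPM + 5) (x axis) in each of the 6 libraries for the 14 genes named as higher (left) and the 14 named as lower (right), with 6 and 9 h libraries as filled points and 0 h libraries as open points. In each of the 28 genes the filled points lie on 1 side of the open ones.

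TT4 (chalcone synthase, CHS) makes the first committed step of flavonoid synthesis and FLS1 makes flavonols, compounds that shield leaves from ultraviolet and strong light. TT4 had 611 and 786 TPM in leaves of No-0 at 6 and 9 h and 579 and 456 TPM in those of slh1, against 93.7 and 39.9 TPM at 0 h (log2 fold change 2.99, SE 0.32, adjusted p = 0.000159). FLS1 had 102 and 137 TPM in leaves of No-0 and 102 and 94.6 TPM in those of slh1, against 0 and 9.97 TPM at 0 h, a pooled ratio of 30.6 (8.33 to 255). At 24 h TT4 was at 147 TPM in leaves of No-0 and 48.6 TPM in those of slh1, and FLS1 at 5.96 and 4.86 TPM. Of 8 flavonoid genes these 2 passed the limit. FLS1 passed it only through the shifted libraries, so that the direction of the tested members is partly set by the limit. Of those below it, CHI (chalcone isomerase) had 31, 16, 16 and 13 tags at 6 and 9 h and 1 and 6 tags at 0 h, and F3H (flavanone hydroxylase) had 15, 10, 10 and 9 tags against 1.5 and 0. ELIP1, an early light-induced protein that binds chlorophyll under light stress, had 76.4 and 88.0 TPM in leaves of No-0 and 96.5 and 57.3 TPM in those of slh1, against 13.8 and 0 TPM at 0 h (3.06, SE 0.68, adjusted p = 0.00927).

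Since the shift and the hour moved together, the promoters of the genes called were searched for letters bound by clock, light, cold and heat factors. The window ran from 250 bases before to 50 bases after the gene start in the RefSeq annotation of TAIR10.1, on both strands. The evening element AAATATCT was in 9.77% of the 133 promoters of genes called higher, 12.2% of the 156 of genes called lower and 8.34% of all 2014 read. The G-box CACGTG was in 9.77%, 12.8% and 10.5%, and the C-repeat core CCGAC of cold-response factors in 18.8%, 15.4% and 15.6%. The CCA1-binding site AAAAATCT was in 4.51%, 8.97% and 8.74%, the heat shock element GAANNTTC in 8.27%, 7.69% and 10.6%, and the site II element TGGGCC in 27.1%, 25.6% and 26.9%. The shares are given without a test. AAATATCT and AAAAATCT share most of their letters and were counted separately. The promoters of the 3 named genes that hold an evening element, and of ELIP1, the next in order of change with a G-box, are shown because they place these letters near genes that moved in both directions. Evening elements and G-boxes are in capitals, and the gene starts at base 251 of each.
FLS1, chr5:2803583-2803882, plus strand: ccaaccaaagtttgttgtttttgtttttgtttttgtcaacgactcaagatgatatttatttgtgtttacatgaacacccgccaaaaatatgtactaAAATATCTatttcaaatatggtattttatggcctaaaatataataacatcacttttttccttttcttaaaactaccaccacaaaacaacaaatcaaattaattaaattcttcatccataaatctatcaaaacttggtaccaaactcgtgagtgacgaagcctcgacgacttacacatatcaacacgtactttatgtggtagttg
TT4, chr5:4488226-4488525, plus strand: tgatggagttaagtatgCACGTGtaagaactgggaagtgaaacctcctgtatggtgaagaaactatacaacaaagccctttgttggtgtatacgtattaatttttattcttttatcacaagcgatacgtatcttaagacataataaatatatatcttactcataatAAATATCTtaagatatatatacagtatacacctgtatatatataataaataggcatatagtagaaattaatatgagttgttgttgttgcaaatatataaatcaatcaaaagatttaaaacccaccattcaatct
PHS1, chr3:11252557-11252856, plus strand: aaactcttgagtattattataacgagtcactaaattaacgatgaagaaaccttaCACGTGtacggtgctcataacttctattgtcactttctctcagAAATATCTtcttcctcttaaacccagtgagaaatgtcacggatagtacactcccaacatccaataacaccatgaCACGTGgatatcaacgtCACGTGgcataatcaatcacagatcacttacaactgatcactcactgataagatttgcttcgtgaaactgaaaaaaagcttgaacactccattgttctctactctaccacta
ELIP1, chr3:8085620-8085919, minus strand: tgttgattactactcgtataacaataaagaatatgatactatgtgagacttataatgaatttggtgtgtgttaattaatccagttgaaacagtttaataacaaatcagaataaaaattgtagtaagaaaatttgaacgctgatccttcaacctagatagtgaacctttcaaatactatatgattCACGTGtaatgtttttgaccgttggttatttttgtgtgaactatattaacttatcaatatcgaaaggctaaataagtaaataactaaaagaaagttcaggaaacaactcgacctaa
The evening element starts 154, 84 and 153 bases before the gene start in FLS1, TT4 and PHS1. FLS1 and TT4 rose and PHS1 fell, so that the same letters stood before genes that moved in opposite directions.

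The starch genes that passed the test all fell. PHS1, the plastid glucan phosphorylase, had 115 and 90.74 TPM in leaves of No-0 at 6 and 9 h and 78.7 and 77.2 TPM in those of slh1, against 369 and 339 TPM at 0 h (log2 fold change -2.18, SE 0.27, adjusted p = 0.000319). PHS2, the cytosolic phosphorylase, had 118 and 181 TPM in leaves of No-0 and 147 and 184 TPM in those of slh1, against 452 and 638 TPM at 0 h (-1.98, SE 0.25, adjusted p = 0.000319). DPE2, the transglucosidase that works beside it, changed by -1.87 (SE 0.38, adjusted p = 0.00595). The 2 glucan, water dikinases that phosphorylate starch at the granule changed by -1.60 (SEX1, SE 0.31, adjusted p = 0.00478) and -1.83 (PWD, SE 0.38, adjusted p = 0.00662). Of 8 starch-breakdown genes tested among 14, these 5 fell and 0 rose, with a median of -1.71, against a median of -0.01 over all genes tested. Of all genes tested, 8.93% were called lower. BAM3, a plastid beta-amylase, was not called, at -1.17 (SE 0.44, adjusted p = 0.0857), and neither were AMY3 at -0.74 (adjusted p = 0.18) and SEX4 at -0.51 (adjusted p = 0.413). At 24 h against the same 0 h libraries the median of the list was -4.42, with PHS1 at 9.93 and 4.86 TPM. Of starch synthesis, 3 of 4 genes tested among 8 fell, namely the synthase SS1 (-2.09, SE 0.36, adjusted p = 0.00237) and the ADP-glucose pyrophosphorylase subunits ADG1 (-1.72, SE 0.33, adjusted p = 0.00464) and APL1 (-1.60, SE 0.31, adjusted p = 0.00464).

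Many enzymes of the Calvin cycle and of photorespiration, the salvage of the oxygenation product of Rubisco, fell. Of 32 genes, all tested, 18 fell, 0 rose and 14 did not pass the test, with a median of -0.81, and 8.93% of all genes tested were called lower. SHM1, the mitochondrial serine hydroxymethyltransferase of photorespiration (chromosome 4, 17831731 to 17835017, minus strand), had 436 and 569 TPM in leaves of No-0 at 6 and 9 h and 543 and 560.1 TPM in those of slh1, against 1899 and 2069 TPM at 0 h (-2.12, SE 0.22, adjusted p = 0.000159). GLU1, the ferredoxin-dependent glutamate synthase that takes back the ammonia set free, had 124 and 118 TPM in leaves of No-0 and 159.9 and 189 TPM in those of slh1, against 482 and 583 TPM at 0 h (-2.07, SE 0.23, adjusted p = 0.000159). In both genes all 4 shifted libraries lay close together and far below both libraries at 0 h. GGT1, the peroxisomal aminotransferase of the same pathway, changed by -1.77 (SE 0.32, adjusted p = 0.00357), SBPASE, a bisphosphatase of the Calvin cycle, by -1.51 (SE 0.23, adjusted p = 0.00124), and the glycine decarboxylase GLDP1 by -1.49 (SE 0.23, adjusted p = 0.00129). The plastid transketolase AT3G60750 (TKL1) changed by -1.38 (SE 0.23, adjusted p = 0.00221). The list median was -0.83 from 6 h alone and -0.80 from 9 h alone, and -0.60 for 24 h, set against the same 0 h libraries.

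Of 46 photosystem and light-harvesting genes of the nucleus, all tested, 2 fell and 0 rose from both times together, with a median of -0.29. From 6 h alone 2 fell, with a median of -0.02, and from 9 h alone 22 fell, with a median of -0.49. Over all 2095 genes tested, 8.93% were called lower from both times together. From 6 h alone 164 of the 2095 were called lower, and from 9 h alone 275. The difference between the times was not tested. The 2 were ATPC1, the gamma subunit of the chloroplast ATP synthase, with 525 and 521 TPM in leaves of No-0 at 6 and 9 h and 635 and 734 TPM in those of slh1, against 1172 and 1495 TPM at 0 h (-1.35, SE 0.22, adjusted p = 0.00193), and PETC, the Rieske protein of the cytochrome complex (-0.78, SE 0.22, adjusted p = 0.0342). The difference from the Calvin list was not tested. Of chlorophyll synthesis, 4 of 13 genes tested among 15 fell and 0 rose, with a median of -0.78. GUN5 (CHLH), the large subunit of magnesium chelatase, had 464 and 168 TPM in leaves of No-0 and 584 and 249 TPM in those of slh1, against 901 and 917 TPM at 0 h (-1.51, SE 0.39, adjusted p = 0.0209). CHLI1 changed by -0.83, PORB by -0.91 and PORC by -1.10. Among the leaf markers CA1, CA2 and RCA (Rubisco activase) fell and RBCS1A did not pass the test, at -0.40 (SE 0.22, adjusted p = 0.243). The sum of the marker list after the shift was 27611 to 32194 TPM against 37450 and 37764 TPM at 0 h, and the part of that in these results was not tested.

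The 3 largest falls were at loci of the chloroplast genome, which are named by ID. Of 72 chloroplast loci tested among 131 in the files, 29 fell and 3 rose, with a median of -0.67, where 8.93% of all genes tested were called lower and 6.49% higher. ATCG00810 had 54.1 and 21.997 TPM in leaves of No-0 at 6 and 9 h and 68.5 and 42.3 TPM in those of slh1, against 426 and 287 TPM at 0 h (-3.13, SE 0.38, adjusted p = 0.000315). ATCG00800, the locus next to it in the numbering, had 233 and 110.0 TPM in leaves of No-0 and 307 and 227 TPM in those of slh1, against 1548 and 1453 TPM at 0 h (-3.01, SE 0.31, adjusted p = 0.000159). ATCG00790 was the most abundant of the named loci, with 716 and 817 TPM in leaves of No-0 and 1429 and 1426 TPM in those of slh1, against 5470.5 and 4212 TPM at 0 h (-2.44, SE 0.27, adjusted p = 0.000159). ATCG00170, ATCG00740 and ATCG00710 changed by -2.90, -2.46 and -2.09. The 3 loci that rose were ATCG00970 and ATCG01160, at 1.22 each, and ATCG01020, at 0.99. ATCG00970 and ATCG01160 held the same values in all libraries, as did ATCG00900 and ATCG01240, so that each pair is 1 measurement. These tags come from a poly(A)-primed library, in which chloroplast RNA is caught only as far as an oligo-dT primer anneals to it. Chloroplast loci took 22.6% and 16.8% of the sense tags of No-0 at 6 and 9 h, against 22.6% at 0 h, and 14.9% and 16.4% of those of slh1, against 20.6% at 0 h. Without chloroplast loci 281 of 2023 genes were called.

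CHUP1, a gene with partly fractional counts whose protein ties chloroplasts to actin and moves them with the light, had 62.6 and 16.5 TPM in leaves of No-0 at 6 and 9 h and 17.8 and 37.3 TPM in those of slh1, against 143 and 180.0 TPM at 0 h (-2.46, SE 0.49, adjusted p = 0.0053). MFP1, a filament-like protein of the thylakoids, changed by -2.36 (SE 0.44, adjusted p = 0.00392). AT3G59780, annotated as a rhodanese-like protein, changed by -2.35 (SE 0.43, adjusted p = 0.00367). ATH13, an ABC2 homologue, changed by -2.23 (SE 0.45, adjusted p = 0.0054), and was at 145 and 136 TPM at 24 h. AT1G73600, a methyltransferase gene, and AT1G73602, which the annotation used here does not describe, both had fractional counts and moved alike from library to library, so that they may be 1 signal. AT1G73600 had 84.3 and 48.1 TPM in leaves of No-0 and 172 and 47.3 TPM in those of slh1, against 376 and 379 TPM at 0 h (-2.34, SE 0.41, adjusted p = 0.00269).

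The aquaporin genes that passed the test all rose. These are the water channels of the plasma membrane (PIP) and the vacuole membrane (TIP). Of 13 tested among 17, 6 rose and 0 fell, with a median of 0.87, and 6.49% of all genes tested were called higher. TIP2;2 had 200.4 and 275 TPM in leaves of No-0 at 6 and 9 h and 119 and 149 TPM in those of slh1, against 49.6 and 39.9 TPM at 0 h (1.85, SE 0.38, adjusted p = 0.00565). TIP1;1 (GAMMA-TIP, AT2G36830), a vacuolar channel, had 230.0 and 567 TPM in leaves of No-0 and 371 and 524 TPM in those of slh1, against 148 and 119.5 TPM at 0 h (1.42, SE 0.35, adjusted p = 0.0158). PIP1;3 (AT1G01620) changed by 1.43, PIP2;7 (AT4G35100) by 1.298, TIP2;1 (AT3G16240) by 1.03 and TIP1;2 (AT3G26520) by 0.87. PIP1;1 and PIP1;2 were not called, at -0.47 and -0.05. At 24 h the median of the list was 1.84, with PIP1;3 at 1255 and 749 TPM against 55.1 and 105 TPM in No-0 and slh1 at 0 h.

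Cold-response genes, a list that holds CBF factors and ZAT12 as well as CBF targets, did not move as a group. Of 9 tested among 16, 1 rose and 2 fell, with a median of 0.16 that was -0.15 at 6 h alone. Of all genes tested, 6.49% were called higher and 8.93% lower. KIN2, a cold-induced protein, had 3053 and 4935 TPM in leaves of No-0 at 6 and 9 h and 1684 and 1827 TPM in those of slh1, against 868 and 1012 TPM at 0 h (1.23, SE 0.35, adjusted p = 0.0339). RD29A (LTI78), a stress marker, had 137 and 148 TPM in leaves of No-0 and 73.6 and 34.8 TPM in those of slh1, against 262 and 149.5 TPM at 0 h (-1.33, SE 0.35, adjusted p = 0.0237). The dehydrin ERD10 changed by -1.31 (SE 0.38, adjusted p = 0.0355). COR15A and COR15B, plastid proteins that protect membranes, were not called, at 0.46 (SE 0.25, adjusted p = 0.219) and 0.88 (SE 0.39, adjusted p = 0.134). COR47, COR413IM1, COR414-TM1 and COR413-PM1 were not called either, at 0.16, 0.17, -0.08 and -0.12. COR15A had 1298 and 1977 TPM in leaves of No-0 and 1036 and 1212 TPM in those of slh1, against 1111 and 648 TPM at 0 h, and it was at 65.6 and 34.0 TPM at 24 h. CBF1 was at 0 tags in all libraries and CBF2 had 2 tags in No-0 at 6 h alone. CBF3 had 6.36 and 19.2 TPM in leaves of No-0 and 5.08 and 17.42 TPM in those of slh1, against 5.51 and 4.98 TPM at 0 h. Of those that did not pass the limit, KIN1 had 39.8 and 72.9 TPM in leaves of No-0 and 24.1 and 17.42 TPM in those of slh1, against 5.51 and 54.8 TPM at 0 h, and GOLS3, LTI30 and ZAT12 stayed at or below 19.9 TPM.

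Of the clock genes, ELF4 and LUX, parts of the evening complex, were tested and 0 of the 2 were called. Of all genes tested, 15.4% were called in either direction, so that 0 of 2 says little about the clock. ELF4 had 79.5 and 319 TPM in leaves of No-0 at 6 and 9 h and 76.2 and 393 TPM in those of slh1, against 66.2 and 59.8 TPM at 0 h (1.54, SE 0.64, adjusted p = 0.117). The 9 h libraries stood far above the 6 h libraries, which were close to 0 h. LUX was at 0.28 (SE 0.52, adjusted p = 0.765). Of the others on the list, GI had 22.3 and 44.0 TPM in leaves of No-0 and 20.3 and 42.3 TPM in those of slh1, against 55.1 and 89.7 TPM at 0 h, and TOC1 had 19.1 and 5.50 TPM in leaves of No-0 and 2.54 and 74.7 TPM in those of slh1, against 13.8 and 44.9 TPM. PRR5 lay between 0 and 39.9 TPM from 0 to 9 h, ELF3 between 0 and 37.3 TPM, PRR3 between 0 and 11.0 TPM and BOA between 0 and 8.25 TPM. Among the morning genes, CCA1 had 6.36 and 0 TPM in leaves of No-0 and 0 and 0 TPM in those of slh1, against 13.8 and 4.98 TPM at 0 h, and RVE8 had 0 and 0 TPM and 2.54 and 4.98 TPM, against 11.0 and 9.97 TPM. RVE1, PRR9 and LNK2 lay between 0 and 20.7 TPM in these libraries. LNK1 had 25.5 and 11.0 TPM in leaves of No-0 and 33.0 and 12.4 TPM in those of slh1, against 74.4 and 69.8 TPM at 0 h.

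Of 10 clock-output genes 4 were tested and 0 were called, with a median of -0.17 that was 0.04 when scaled by total tags. With 15.4% of all genes tested called in either direction, 0 of 4 says little about the list. GRP7, a clock-regulated RNA-binding protein, had 2456 and 7850.1 TPM in leaves of No-0 at 6 and 9 h and 2287 and 6996 TPM in those of slh1, against 1609.9 and 2398 TPM at 0 h (1.07, SE 0.47, adjusted p = 0.135). CAT2, the leaf catalase, had 659 and 140.2 TPM in leaves of No-0 and 777 and 137 TPM in those of slh1, against 989.6 and 698 TPM at 0 h (-1.15, SE 0.58, adjusted p = 0.198). In both genes the 6 h libraries were near the 0 h libraries and the 9 h libraries stood apart in both genotypes. GRP8 was at -0.24 (adjusted p = 0.624) and CAT3 at -0.11 (adjusted p = 0.824). COR27 had 3.18 and 94.4 TPM in leaves of No-0 and 7.62 and 137 TPM in those of slh1, against 12.4 and 0 TPM at 0 h. FKF1 had 19.1 and 28.4 TPM in leaves of No-0 and 5.08 and 43.1 TPM in those of slh1, against 11.0 and 46.5 TPM. COR28, CDF1, COL1 and COL2 lay between 0 and 49.8 TPM from 0 to 9 h.

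Of 6 tested among 25 genes of heat shock proteins and chaperones, 2 fell and 0 rose, with a median of -0.84, where 8.93% of all genes tested were called lower. With the length trend removed, as described further on, neither was called and the median was -0.35. BIP1, a chaperone of the endoplasmic reticulum that shares reads with near copies, changed by -1.31 (SE 0.34, adjusted p = 0.0191) and the plastid chaperone cpHsc70-2 by -1.09 (SE 0.25, adjusted p = 0.0107). HSC70-1, the main cytosolic form, was at 0.19 (adjusted p = 0.669). None of the 9 warm-growth genes, such as PIF4 and YUC8, passed the limit. PIF4, the factor that drives growth in warmth, had 5, 8, 13 and 8 tags at 6 and 9 h and 9 and 15 tags at 0 h.

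In the defence and hormone lists both directions were called, and 15.4% of all genes tested were called in either direction. Of 7 jasmonate genes tested among 20, VSP1, a storage protein induced by jasmonate, rose and LOX2, the lipoxygenase that starts its synthesis in plastids, fell. VSP1 had 103 and 165 TPM in leaves of No-0 at 6 and 9 h and 102 and 41.1 TPM in those of slh1, against 30.3 and 2.49 TPM at 0 h (2.50, SE 0.66, adjusted p = 0.0237), and its reads are partly shared with another gene. LOX2 had 232 and 374 TPM in leaves of No-0 and 185 and 388 TPM in those of slh1, against 609 and 698 TPM at 0 h (-1.36, SE 0.29, adjusted p = 0.00772). Of 3 salicylate-linked genes tested among 21, 0 were called, with LURP1, an oomycete-resistance gene, at 2.42 and ACD6 at -0.996. Of 12 glucosinolate and myrosinase genes tested among 18, 1 rose and 2 fell. BCAT4, the first enzyme of chain elongation, had 331 and 436 TPM in leaves of No-0 and 309.7 and 378 TPM in those of slh1, against 128 and 109.7 TPM at 0 h (1.42, SE 0.27, adjusted p = 0.00448). MYB28, the factor that turns on the aliphatic pathway, changed by -1.99 (SE 0.42, adjusted p = 0.00685), and the myrosinase TGG1 by -1.34 (SE 0.30, adjusted p = 0.00862). BCAT4 and MYB28 thus moved in opposite directions.

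Of the housekeeping lists, 23 cytosolic ribosomal protein genes were tested among 26, with 1 higher (RPS5A, 0.88, SE 0.27, adjusted p = 0.045) and 1 lower (ATL5, the L5 protein, -1.35, SE 0.32, adjusted p = 0.0136). The median was 0.19, with 17 of 23 above 0. Over all genes tested, 6.49% were called higher and 8.93% lower. None of 5 reference genes tested among 7 was called, with changes from -0.29 to 0.66. Nitrite reductase NIR1 fell by 1.87 on the log2 scale (SE 0.33, adjusted p = 0.00263), 1 of 3 genes tested among 6 for nitrate and sulfate. The cytosolic fructose bisphosphatase FBP of sucrose synthesis fell by 1.47 (SE 0.34, adjusted p = 0.0111), 1 of 2 tested among 6. EXPA1, an expansin that loosens walls, was called lower at -1.20 (SE 0.38, adjusted p = 0.0488), the only call among 5 tested of 13 expansin and wall-remodelling genes. It had 95.4 and 85.2 TPM in leaves of No-0 at 6 and 9 h and 142 and 82.1 TPM in those of slh1, against 110.3 and 334 TPM at 0 h, with No-0 libraries that lay nearer to each other than those of slh1.

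**Figure D4:**
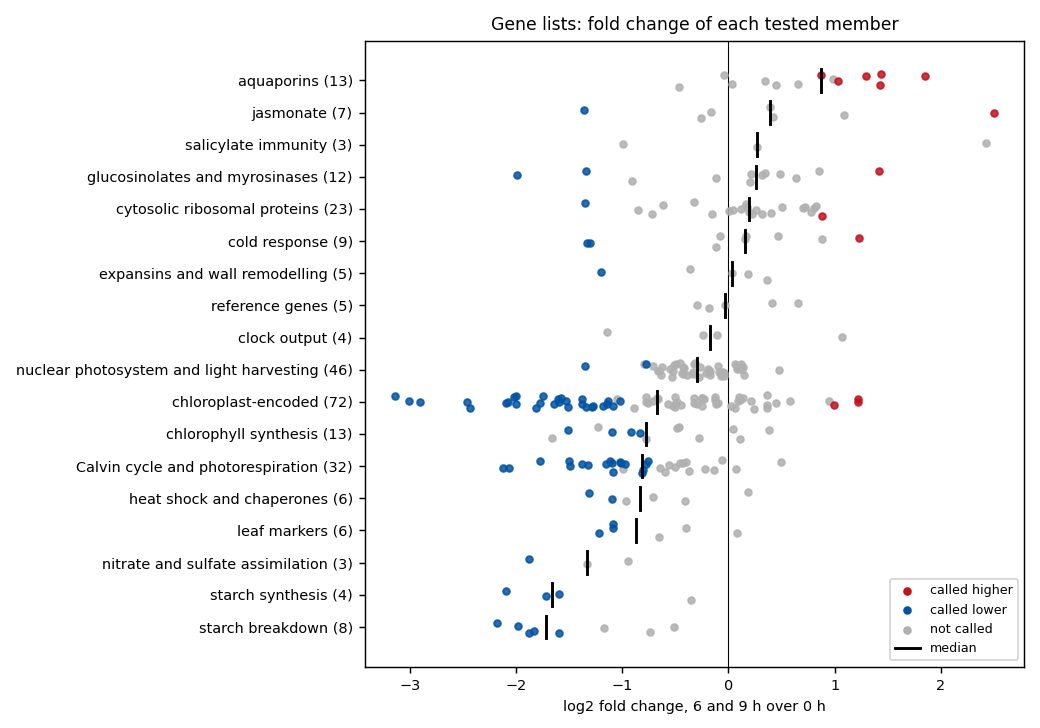
Log2 fold change of 6 and 9 h over 0 h (x axis) of each tested member of the gene lists with 3 or more tested members, with the number tested in brackets, points coloured by call and a black bar at the median. The starch lists have medians of -1.71 and -1.66, the Calvin list of -0.81 and the aquaporins of 0.87.

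The change also moved with the length of the transcript, and its part in the results was not tested beyond the values below. The longest annotated transcript had a median of 982 bases in the 133 nuclear genes called higher and 1899 bases in the 156 called lower that have a length, against 1309 bases in all 2015 nuclear genes with a length. The genes were set into 4 groups of near equal size by length. In the shortest, up to 967 bases, 64 genes rose and 11 fell, and in the longest, from 1803 bases, 9 rose and 87 fell. The medians of the groups, short to long, were 0.41, 0.10, -0.07 and -0.37 on the log2 scale. They were 0.38, 0.08, -0.07 and -0.42 in slh1 and 0.38, 0.07, -0.08 and -0.32 in No-0, and 0.43, 0.01, -0.26 and -0.48 at 24 h against the same 0 h libraries. Lists differ in this property, with a median length of 3174 bases in the tested genes of starch breakdown, 1784 in the Calvin list, 1509 in the aquaporins and 1204 in the photosystem list. With the trend of each library on length taken out, an alternative chosen after the data were seen, 103 genes rose and 118 fell of 2015, and 173 of the 289 called genes that could be tested in it kept their call and direction. Of the lists, 13 of 32 Calvin genes, 3 of 8 starch-breakdown genes and 3 of 4 starch-synthesis genes then fell, 5 of 13 aquaporins and both flavonoid genes rose, and the 3 cold-response genes were no longer called. The median of the starch-breakdown list was then -1.01. Of genes called lower, those of the chaperone list changed in number to 0, those of the expansin list to 0, those of the leaf markers to 1 of 6 and those of chlorophyll synthesis to 2 of 13, and the photosystem list had 4 of 46. Of the jasmonate genes LOX2 was no longer called, and the median of the 3 nitrate and sulfate genes was -0.77.

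**Figure D5:**
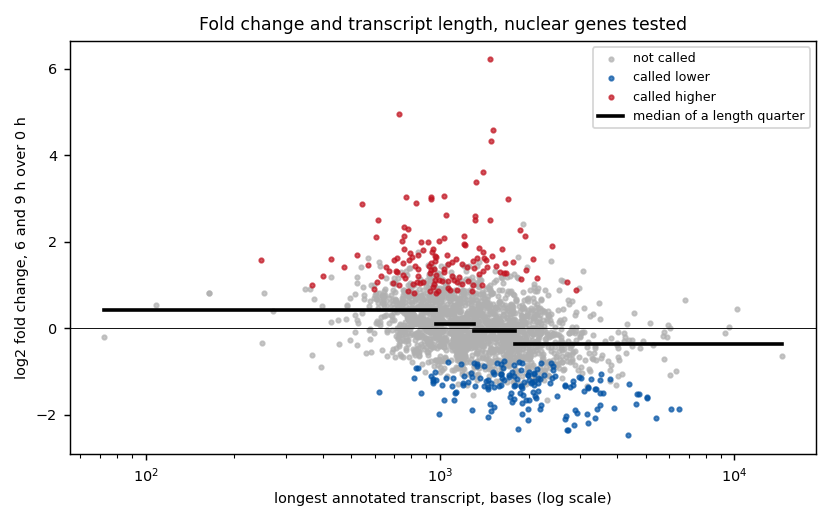
Log2 fold change of 6 and 9 h over 0 h (y axis) against the length of the longest annotated transcript in bases (x axis, log scale) for the 2015 nuclear genes with a length, coloured by call, with black bars at the median of each of the 4 length groups. The bars step down from 0.41 in the shortest group to -0.37 in the longest.

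Set beside the later time, which uses the same 0 h libraries, 24 h gave 319 higher and 386 lower genes of 2095 (33.7%). Because both comparisons rest on the same 0 h libraries, only the values of each are given. SHM1 changed by -2.12 at 6 and 9 h and by -2.30 at 24 h, PHS1 by -2.18 and -5.41, TT4 by 2.99 and 0.59, DOT1 by 3.39 and 2.60, KIN2 by 1.23 and -1.09, and ATCG00800 by -3.01 and -2.69. TT4, FLS1, LTP3 and ELIP1 were not past the threshold at 24 h (adjusted p = 0.248, 0.734, 0.975 and 0.456).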

How the data were processed

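EXPRSS Tag-seq libraries of leaf RNA were primed with oligo-dT, sheared, and sequenced from both ends, with reads truncated to 36 bases. The authors deposited an expected count per gene and strand for each library, in which a read matching several genes was split among them, and the values were rounded to whole numbers here. The submitters' processing notes name TAIR10, Bowtie 0.12.8, Novoalign 2.08.03 and R 2.15.3. The study's methods name Bowtie as aligner, on the genome first and on transcripts for what was left, R for its tests of expression, and, for paired-end reads, BWA. Which alignment gave the deposited counts, and what Novoalign was used for, is not given in the sources used here. Rows on the antisense strand were left out. Gene names, positions, lengths and promoters came from the RefSeq annotation of TAIR10.1, to which 2015 of 2095 tested genes (96.2%) matched.

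Genes with a mean of 20 or more tags over the 6 libraries were fitted with edgeR 4.0.16 (R 4.3.3) by the quasi-likelihood F test on TMM-scaled counts, with genotype and stage as terms, and p-values were adjusted by Benjamini and Hochberg. Adjusted p are from this tool unless another is named, and SE were back-calculated from its log2 fold change and F statistic. The difference between genotypes was an interaction term. The 24 h values came from a fit of all 8 libraries. Differences per library used log2(TPM + 5). Tags carry no molecular identifiers, so intervals and floors (3 tags) cover counting error only. Named were the 14 largest changes in each direction that kept their sign in both genotypes at both times, called members of the gene lists (up to 6 a list), and clock and cold genes whatever their call. The members and the lists were chosen with earlier results of these data known. Alternatives changed scaling, filter, tool (DESeq2 1.42.0, limma-voom 3.58.1), block and libraries. A sample that the labels place in no group was not used.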

Additional observations from a re-analysis of the deposited data

Results flagged for a closer look

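FLS1 (AT5G08640) had 137 TPM in No-0 at 9 h, above the other 3 shifted libraries, which had 102 TPM in No-0 at 6 h and 102 and 94.6 TPM in slh1. The value rested on 50 tags, against 32 tags in No-0 at 6 h and 40 and 38 tags in slh1. Dixon's test over the 4 shifted libraries picked it out. It was the 1 gene past that value of the 28 named genes checked, and chance picks out about 1 in 20 such groups.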

How the results depend on the processing

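Of 323 genes called, the count was 195 with a mean of 50 or more tags, 536 from 9 h alone, 0 from No-0 alone, 137 from slh1 alone and 215 over genes with whole counts. It ran from 0 to 355 when 1 library was left out. Fits of No-0 alone, of slh1 alone or with a 0 h library left out hold only 1 library at 0 h. How many genes pass in such a fit does not show how far a genotype changed. At 24 h the count was 390 with a mean of 50 or more tags, and ran from 356 to 575 when 1 library was left out. The test of the difference between genotypes in their change gave no call under any tool run, which does not show that they changed alike. The median of the cold list turned to -0.15 from 6 h alone, to -0.10 from slh1 alone and to -0.0386 with the length trend removed, and ran from -0.10 to 0.45 when 1 library was left out. That of the ribosomal list was -0.0882 in No-0 alone, with a range of -0.0558 to 0.71. That of the jasmonate list was -0.23 with a mean of 50 or more tags and -0.32 in slh1 alone, with a range of -0.26 to 0.78. That of the expansin list was -0.00758 with limma-voom, -0.21 from 9 h alone, -0.16 in slh1 alone and -0.0782 over whole counts, with a range of -0.17 to 0.20. The causes were not tested. None of the 28 named genes reversed, all 28 missed the threshold in No-0 alone and without No-0 at 0 h, and 15 missed it without slh1 at 0 h. With limma-voom DYL1, LTP3 and AT2G33830 missed it (adjusted p = 0.0947, 0.0597 and 0.0958), LTP3 missed it in slh1 alone (0.0636), and DYL1 missed it from 6 h alone (0.392) and without No-0 at 9 h (0.138). No paired analysis was possible because each genotype and time point has 1 library and so no replicate numbers to pair by. Pairing by genotype was the block of the fit itself, and without it 312 genes were called.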

Other observations

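The genes in these paragraphs were chosen after their values were seen. Superoxide dismutases, which remove superoxide, moved in both directions. The cytosolic copper/zinc enzyme CSD1 had 461 and 605 TPM in leaves of No-0 at 6 and 9 h and 454 and 632 TPM in those of slh1, against 138 and 129.6 TPM in No-0 and slh1 at 0 h (log2 fold change 1.80, SE 0.28, adjusted p = 0.00124 in edgeR). The iron enzyme FSD1 had 255 and 176 TPM in leaves of No-0 and 249 and 42.3 TPM in those of slh1, against 477 and 673 TPM at 0 h (-1.89, SE 0.47, adjusted p = 0.0177). The plastid copper/zinc enzyme CSD2 and the copper chaperone CCS were not past the threshold, at 0.78 (SE 0.26, adjusted p = 0.055) and 1.13 (SE 0.45, adjusted p = 0.101).

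Metallothioneins, small proteins that bind copper and zinc, were among the most abundant transcripts that rose. MT2B had 3382 and 3830.2 TPM in leaves of No-0 at 6 and 9 h and 2953 and 3199.9 TPM in those of slh1, against 995 and 1112 TPM at 0 h (1.45, SE 0.26, adjusted p = 0.00297). MT1B changed by 2.02 (SE 0.29, adjusted p = 0.000775) and MT2A by 1.55 (SE 0.47, adjusted p = 0.0401). MT2A had 1498 and 4248 TPM in leaves of No-0 at 6 and 9 h, against 620.2 TPM at 0 h, and 1023 and 3022 TPM in those of slh1, against 773 TPM. MT3 was not past the threshold, at 0.53 (SE 0.28, adjusted p = 0.212).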
